A study of Mus musculus with 6 samples.

Results

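This account covers H3K9me2 peaks called in Phf2 knockout muscle and not in control muscle, where they lie well inside genes. Of 12508 H3K9me2 peaks on chromosomes 1 to 19 of the knockout library, 2009 were chosen, out of 48686 peaks in the 6 lists of the series. A peak was kept if it overlapped no control H3K9me2 peak, no H3K4me3 peak and no peak of the 3 inputs, and if its centre lay inside a protein-coding gene more than 2 kb from both ends of every such gene. These are called body peaks here, and a gene that holds one is called a host gene. They were chosen by presence in one list and absence from the others, so those features are descriptions and not findings.

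All libraries came from gastrocnemius, a calf muscle, of male C57BL/6 mice aged 4 weeks. The knockout mice (CKO) were Phf2 flox/flox;Acta1 Cre+, and the control mice (Ctrl) were Phf2 flox/flox;Acta1 Cre-, so both genotypes carried the floxed alleles. Cre under the skeletal actin gene Acta1 acts in muscle fibres, and other cells of the muscle keep Phf2. There was 1 library each for H3K9me2 in CKO, H3K9me2 in Ctrl, H3K4me3 in Ctrl and input in CKO, and there were 2 for input in Ctrl. The H3K4me3 library carries the words wild type in its title and the Ctrl genotype in its labels. With 1 H3K9me2 library per genotype there was no replicate check, no test between genotypes was made, and genotype cannot be told apart from animal or library. All intervals below are exact 95% intervals (Clopper-Pearson for shares, Poisson for rates) and cover counting error only, since peaks and genes of 1 library are not replicates.

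PHF2 is a member of the JmjC family of histone demethylases and carries a PHD finger that binds H3K4me3. H3K9me2 is a mark of silent chromatin, laid down mainly by G9a and GLP, and it often spans long domains over inactive genes and the sequence between genes. H3K4me3 marks the starts of active genes. CUT&RUN maps a mark by tethering a nuclease to it through an antibody, so that only the DNA next to the marked nucleosome is cut free and sequenced.

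Host genes and other genes differed in the sequence of their starts and in H3K4me3 within 2 kb of either gene end, so start sequences are shown first. Body peaks seldom touched an annotated start: 12 of 2009 (0.597%) overlapped a window from 250 bases before to 50 bases after a start, compared with 30 of 6024 CKO-only peaks between genes (0.498%). At 5 of these 12 windows the start belonged to the protein-coding host gene itself, as an inner start more than 2 kb from the gene's ends. The 250 bases before 4 of those starts follow, from RefSeq on GRCm38.p6, the assembly on which mm10 is based, written 5′ to 3′ on the gene's strand. Capitals mark the bases that lie inside the body peak. These windows and their genes were picked after their values were seen.

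Cldn18, chr9:99710064-99710313, minus strand: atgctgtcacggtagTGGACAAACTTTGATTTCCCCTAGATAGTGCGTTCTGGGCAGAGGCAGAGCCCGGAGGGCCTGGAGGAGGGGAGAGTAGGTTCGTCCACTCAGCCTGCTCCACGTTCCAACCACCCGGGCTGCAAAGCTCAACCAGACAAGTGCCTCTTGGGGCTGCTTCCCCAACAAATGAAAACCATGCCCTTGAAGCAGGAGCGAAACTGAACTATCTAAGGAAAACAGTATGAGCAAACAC

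Zfp936, chr7:43177340-43177589, plus strand: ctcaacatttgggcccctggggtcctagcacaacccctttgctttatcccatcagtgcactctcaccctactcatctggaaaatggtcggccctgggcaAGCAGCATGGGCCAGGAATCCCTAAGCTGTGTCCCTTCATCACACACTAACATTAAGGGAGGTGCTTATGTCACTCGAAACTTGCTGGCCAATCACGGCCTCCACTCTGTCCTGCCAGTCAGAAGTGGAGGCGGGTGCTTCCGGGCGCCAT

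Gmnc, chr16:26968246-26968495, minus strand: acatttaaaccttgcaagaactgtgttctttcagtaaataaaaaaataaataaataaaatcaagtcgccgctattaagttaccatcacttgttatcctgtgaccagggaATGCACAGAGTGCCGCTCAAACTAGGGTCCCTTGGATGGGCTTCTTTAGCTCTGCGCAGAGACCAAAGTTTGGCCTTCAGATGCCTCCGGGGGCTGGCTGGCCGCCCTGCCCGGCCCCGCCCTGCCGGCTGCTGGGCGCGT

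Aldh1a1, chr19:20601718-20601967, plus strand: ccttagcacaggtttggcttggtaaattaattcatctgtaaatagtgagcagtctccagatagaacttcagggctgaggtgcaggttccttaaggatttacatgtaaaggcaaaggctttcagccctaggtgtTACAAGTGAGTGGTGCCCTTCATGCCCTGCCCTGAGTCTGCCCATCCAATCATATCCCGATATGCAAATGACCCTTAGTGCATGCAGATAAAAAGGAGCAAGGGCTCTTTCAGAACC

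The peak at Cldn18, which encodes a tight junction protein of lung and stomach, covered 235 of the 250 bases, with a fold of 5.45 and 9 fragments at its summit. At Zfp936, a zinc finger gene, the peak covered 151 bases with a fold of 6.48 and 12 fragments. Gmnc encodes a regulator of multiciliated cells, and its peak covered 141 bases with a fold of 4.53 and 6 fragments. At Aldh1a1, which encodes a retinal dehydrogenase, 117 bases were covered, with a fold of 4.18 and 6 fragments. In Ctrl, none of these 4 host genes was marked by H3K4me3 at an end, that is, within 2 kb of it. Fold here is the authors' ratio of summit pileup to local background, with a small constant added to both. At the low backgrounds here it lies well below the plain ratio and rises with depth. Folds of different libraries are therefore not on the same scale. Fragments are the sequenced DNA pieces stacked at the summit, recovered from the fold and p-value.

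The next 4 windows are the 250 bases before the outermost start of host genes no longer than 50 kb, again on the gene's strand. They were picked by fold among hosts whose annotated start lies within 50 bases of the gene's end, first 2 without H3K4me3 and then 2 with an H3K4me3 peak over the window itself. They are not the highest of all hosts of this length, since Pdilt and Lypd1, with higher folds, have no such start. Capitals mark CG dinucleotides, counted on the strand shown and therefore on both.

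Cpa3, chr3:20242182-20242431, minus strand: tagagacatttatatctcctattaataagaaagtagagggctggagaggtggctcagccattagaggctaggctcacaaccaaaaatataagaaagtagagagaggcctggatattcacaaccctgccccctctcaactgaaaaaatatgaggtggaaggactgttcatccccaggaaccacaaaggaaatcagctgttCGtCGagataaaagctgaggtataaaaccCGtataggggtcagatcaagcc

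Akr1c6, chr13:4434093-4434342, plus strand: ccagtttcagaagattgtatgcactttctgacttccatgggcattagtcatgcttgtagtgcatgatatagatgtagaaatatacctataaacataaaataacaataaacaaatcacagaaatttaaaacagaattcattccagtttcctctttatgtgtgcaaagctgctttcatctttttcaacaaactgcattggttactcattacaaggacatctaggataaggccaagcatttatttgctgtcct

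Gng4, chr13:13783809-13784058, plus strand: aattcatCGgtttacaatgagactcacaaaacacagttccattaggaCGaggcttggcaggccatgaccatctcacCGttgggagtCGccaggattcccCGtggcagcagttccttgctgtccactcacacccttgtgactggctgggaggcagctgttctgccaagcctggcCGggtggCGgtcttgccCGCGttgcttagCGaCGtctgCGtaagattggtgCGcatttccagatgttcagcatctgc

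Tmem169, chr1:72284123-72284372, plus strand: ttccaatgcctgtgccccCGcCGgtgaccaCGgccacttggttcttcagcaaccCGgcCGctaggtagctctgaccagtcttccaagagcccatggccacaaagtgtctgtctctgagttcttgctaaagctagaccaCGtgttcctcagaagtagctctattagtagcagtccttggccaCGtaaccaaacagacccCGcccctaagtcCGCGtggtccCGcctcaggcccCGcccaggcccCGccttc

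Cpa3, the mast cell carboxypeptidase gene, has 3 CG dinucleotides in its window and Akr1c6, an aldo-keto reductase gene, has 0. Gng4, a G protein gamma subunit gene, and Tmem169, a transmembrane protein gene, have 13 each, and an H3K4me3 peak overlapped both windows in Ctrl. The best body peak in Cpa3 had a fold of 9.99, against 8.25 in Akr1c6, 7.54 in Gng4 and 5.18 in Tmem169. Over all hosts of this length, 134 of 169 had a start window in the RefSeq table. Their median was 2 CG in the 250 bases before the start, compared with 11 over 9495 genes of the same length that had room for a body peak and held none. In the longer classes the medians of hosts and of genes without a body peak were 5 and 16 at 50 to 100 kb, 11 and 18 at 100 to 200 kb, 12 and 16 at 200 to 400 kb, and 12 and 18 above 400 kb. Over all lengths the median was 17 in hosts with H3K4me3 at an end and 4 in hosts without it. Over the same 250 bases of all 31396 start windows the dinucleotide was present in 92.4%, with a median of 18 where H3K4me3 overlapped the window and 3 where it did not.

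A single annotated microRNA overlapped a body peak, Mir12184 inside Gpld1, at a fold of 5.60. Its mature 5p strand is shown with the seed, bases 2 to 8, in capitals, and it too was picked after its value was seen. The peak, chr13:24979670-24980064, ended inside this strand and did not cover the rest of it.

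mmu-miR-12184-5p, chr13:24980056-24980077, plus strand: cUUGCAUGugggccugugugcu

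Altogether 123 of 2009 body peaks (6.12%) overlapped an annotated gene that does not code for protein, of which 74 were long non-coding RNAs and 45 pseudogenes. The sequences of the body peaks themselves and their exon or intron position are not given here.

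The rule removed peaks step by step. Of the 12508 CKO peaks, 11133 (89%) overlapped no Ctrl H3K9me2 peak, 9589 of these no H3K4me3 peak and 8310 of those no input peak. Of the 8310, 6024 lay between genes, 277 had their centre within 2 kb of a gene end, and 2009 (24.2%) were body peaks. Among the 2139 gene-body peaks free of input and H3K4me3, 93.9% were absent from Ctrl, and 130 were present in both genotypes. The same rule with the genotypes exchanged gave 439 Ctrl-only body peaks, where 61.7% of all 3595 Ctrl peaks overlapped no CKO peak. Nearly all body peaks had a single host: 1991 lay in 1 gene, 14 in 2 overlapping genes and 4 in 3 or more, such as the Ugt1a and Pcdha clusters, whose transcripts share exons.

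Body peaks were small. They were 330 to 1296 bp wide, with a median of 370 bp, and together covered 802 kb. Their fold ran from 3.21 to 11.5 with a median of 5.18, and their summits held 5 to 136 fragments with a median of 8. A q-value of 1e-05 or less was reached by 654 (32.6%, interval 30.5 to 34.7), and 634 (31.6%) had 10 or more fragments. CKO-only peaks between genes had a median fold of 5.41 and 9 fragments, body peaks found in both genotypes 5.78 and 10, and Ctrl-only body peaks 4.41 and 6. The Ctrl-only values come from the library with lower coverage. The plot of fold and summit fragments shows a bulk at low values with a thin upper tail. The highest fragment count, 136, belonged to a peak in Sfi1 at chr11:3189057-3189462, where the local background was 22.1 fragments and the fold 5.93. Sfi1 was singled out after its value was seen, and 7 body peaks in all had a local background above 2.

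**Figure D1:**
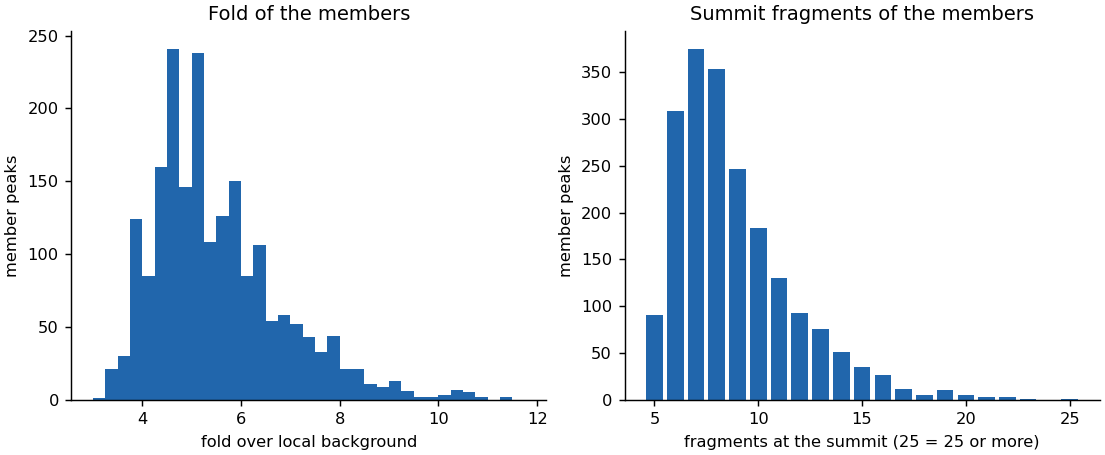
Fold over local background (left) and fragments at the summit (right) of the 2009 CKO-only H3K9me2 body peaks, with the number of peaks on the vertical axes. Most summits hold few fragments, with a median of 8, and folds reach 11.5.

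The libraries differed in depth. Genome-wide coverage, read as the lowest local background in each list, was 0.544 fragments per base for H3K9me2 in CKO and 0.391 in Ctrl, a ratio of 0.719. When the fragments of each body peak were scaled by that ratio, 173 of 2009 (8.61%) fell below the lowest −log10 p of the Ctrl list, 3.93. They comprised 169 of the 775 body peaks with up to 7 fragments, 4 of the 600 with 8 or 9, and 0 of the 634 with 10 or more. The scaling assumes equal enrichment and leaves out differences in background between the libraries, whose part in the result was not tested. It also takes a single rounded count per peak without sampling spread. Body peaks that stayed above the cut could therefore still have been missed in Ctrl. The CKO input also had more autosomal peaks (10683) than the Ctrl inputs (2999 and 1277), and its part in the lists was not tested. By H3K4me3 at a gene end, 5 of 8 muscle fibre markers (Des, Tnnt3, Mylpf, Pvalb and Actn3, not Acta1, Ckm or Ttn) were marked, as were 2 of 4 satellite cell, 1 of 4 fibroadipogenic, 2 of 4 endothelial, 2 of 4 blood and immune, 2 of 3 Schwann and 0 of 3 neuron markers. Of the neuron markers, Rbfox3 held 1 body peak. Phf2 itself (chr13:48801750-48870885) held no body peak and had H3K4me3 at an end, in a library without Cre, which checks nothing about the deletion.

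The body peaks lay in few genes, and these were very long. They fell in 1079 of 20665 autosomal protein-coding genes (5.22%), or 6.43% of the 16784 with room for one. The median host gene was 181.6 kb long, compared with 24.5 kb for genes with room and 17.5 kb for all genes. Of the host genes, 693 held 1 body peak, 386 held 2 or more, 87 held 5 or more and 21 held 8 or more. The 386 genes with 2 or more held 1339 body peaks (66.7%), and genes longer than 400 kb held 948 (47.2%, interval 45.0 to 49.4). Genes of 50 kb or less, which are most genes, held 173 (8.61%).

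Length alone gives room, so the counts were divided by the eligible sequence, the part of a gene more than 2 kb from all gene ends. A peak in overlapping genes counts in each, which gives 2042 peak and gene pairs. The rate was 0.983 per Mb (0.844 to 1.14) in genes up to 50 kb, 1.23 at 50 to 100 kb, 1.57 at 100 to 200 kb, 2.61 at 200 to 400 kb and 4.09 (3.83 to 4.35) above 400 kb. Each step was upward, and the rate in the longest class was 4.16 times that in the shortest. Genes above 400 kb made up 25.5% of the eligible sequence and held 46.8% of the pairs, and 269 of these 338 genes (79.6%) were hosts. The 1389 CKO input peaks in gene bodies that overlapped no peak of the other 5 lists ran the other way, from 2.08 per Mb in the shortest class to 0.770 in the longest.

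Genes marked by H3K4me3 in control muscle held fewer body peaks per Mb, with the widest gap in short genes. In genes up to 50 kb the rate was 0.336 per Mb (0.242 to 0.454) with H3K4me3 within 2 kb of an end and 2.43 (2.04 to 2.88) without it, a ratio of 7.25. The ratio was 5.27 at 50 to 100 kb, 2.43 at 100 to 200 kb, 1.96 at 200 to 400 kb and 1.22 above 400 kb. In the longest class the rates were 3.78 (3.47 to 4.11) and 4.597 (4.16 to 5.07). In the plot of rates by gene length the classes with and without H3K4me3 are far apart on the left and close on the right. The CKO input peaks had ratios between 0.778 and 1.11. The rule removed peaks that overlapped H3K4me3, so a gene with H3K4me3 inside its body lost those positions, and that part in the ratio was not tested.

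**Figure D2:**
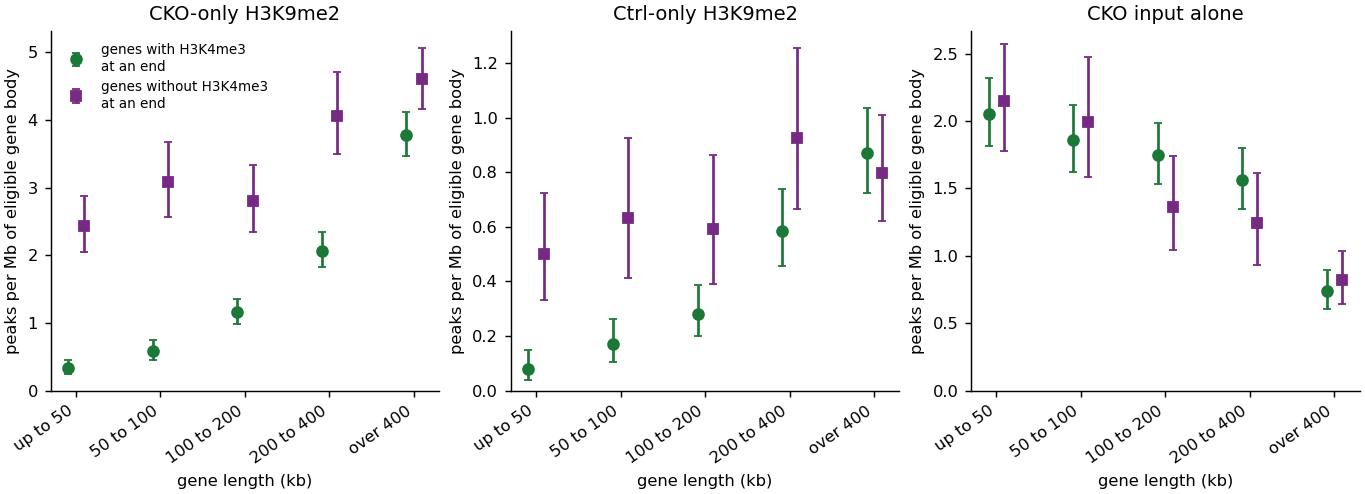
Peaks per Mb of eligible gene body (vertical axes, each with its own scale) against gene length class, for CKO-only H3K9me2, Ctrl-only H3K9me2 and CKO input peaks, in genes with (circles) and without (squares) H3K4me3 within 2 kb of an end in Ctrl. Bars are exact 95% Poisson intervals of the counts. Both H3K9me2 panels climb with length while the input panel falls from 2.08 to 0.770 per Mb over all genes.

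Counted by genes, 536 of 1079 hosts (49.7%, interval 46.7 to 52.7) had H3K4me3 at an end, compared with 67.6% of genes with room and 61% of all genes. Among genes up to 50 kb, 38 of 169 hosts (22.5%) had it, compared with 65.4% of all genes of that length with room. At 50 to 100 kb the shares were 36.0% and 73.4%, at 100 to 200 kb 56.7% and 74.6%, and at 200 to 400 kb 60.2% and 73.1%. Above 400 kb, 162 of 269 hosts (60.2%) had it, compared with 65.7% of all genes of that length. The 338 genes of that class are mostly hosts, and of the 69 with no body peak 60 (87.0%, 76.7 to 93.9) had H3K4me3. Hosts of CKO input peaks had it in 72.5%.

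With genes of all lengths pooled, body peaks were more frequent deep inside genes than near their ends. Distance goes with gene length, since only genes longer than 400 kb hold sequence beyond 200 kb from an end. The rate over all eligible sequence of those genes was 4.09 per Mb. Distance within a length class was not examined. The distance from a body peak to the nearest gene end ran from 2016 bp to over a megabase, with a median of 66.9 kb. The rate was 1.13 per Mb (0.988 to 1.28) at 2 to 10 kb from an end, 1.56 at 10 to 25 kb, 1.997 at 25 to 50 kb, 2.71 at 50 to 100 kb, 3.45 at 100 to 200 kb and 4.19 (3.79 to 4.63) beyond 200 kb. At the same distances outside genes the CKO-only rate was 2.47, 3.43, 4.23, 4.63, 5.45 and 5.13 per Mb. Gene bodies therefore held fewer peaks than the sequence between genes at each distance, by a ratio of 2.19 nearest the ends and 1.22 beyond 200 kb. The plot of rates by distance shows body rates climbing throughout, while the CKO-only intergenic rate was lower beyond 200 kb than at 100 to 200 kb. The CKO-only ratio was 2.20 at 10 to 25 kb and 2.12 at 25 to 50 kb, and 1.70 at 50 to 100 kb.

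**Figure D3:**
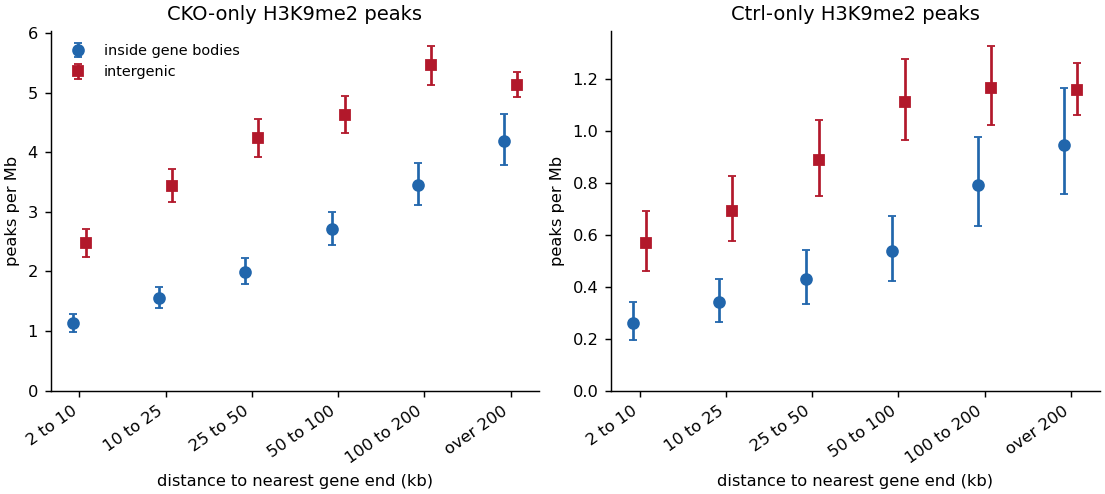
Peaks per Mb (vertical axes, each with its own scale) against distance to the nearest gene end, inside gene bodies (circles) and between genes (squares), for CKO-only and Ctrl-only H3K9me2 peaks. Bars are exact 95% Poisson intervals. Body rates go from 1.13 to 4.19 per Mb in the CKO-only panel and lie below the intergenic rates in each distance class of both panels.

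Along the gene, body peaks lay in all parts, with a mild rise toward the 3′ end. For 1530 body peaks in a single gene of known strand, 4 equal stretches from the 5′ to the 3′ end held 21.8%, 24.5%, 25.8% and 27.9%, and the median position was 53.8% of the gene's length. The interval was 19.8 to 24.0 for the first stretch and 25.7 to 30.2 for the last. Of the CKO input peaks, the first stretch held 20.4% and the last 33.6%. Neighbouring body peaks of the same gene were a median of 77.5 kb apart over 957 pairs, and 58 pairs (6.06%) were within 10 kb. The closest pair lay in Apba2, an adaptor gene of the amyloid precursor protein, where 1204 bp separated chr7:64703003-64703359, with a fold of 3.96, from chr7:64704564-64704929, with a fold of 4.22. By chromosome the rate per Mb ran from 1.501 (1.18 to 1.88) on chromosome 11 to 2.95 (2.46 to 3.51) on chromosome 14, around 2.22 over all.

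The Ctrl-only body peaks of the full lists followed the same pattern at a lower number. Their rate was 0.210 per Mb in genes up to 50 kb and 0.842 above 400 kb, 4.01 times as high, and the ratio between genes without and with H3K4me3 went from 6.27 in the shortest class to 0.919 in the longest. There were 4.58 CKO-only body peaks for each Ctrl-only one (4.13 to 5.09), and 4.51 (4.25 to 4.79) between genes. The lists differ in length, 12508 peaks in CKO and 3595 in Ctrl, and the excess depended on that. With the CKO list shortened by q to the length of the Ctrl list, there were 474 CKO-only and 521 Ctrl-only body peaks. The excess was then not seen, an outcome that the shortening largely sets. No interval was computed for the ratio of these counts. The ratios that follow use the full lists. The ratio was 4.68, 4.26, 4.37, 3.86 and 4.85 in the 5 length classes, and between 4.34 and 5.05 in the distance classes of gene bodies. It was 4.03 (3.52 to 4.63) in genes with H3K4me3 and 5.07 (4.34 to 5.95) in genes without. By chromosome it ran from 2.95 (1.72 to 5.25) on chromosome 18 to 6.82 (3.60 to 14.2) on chromosome 11. The intervals of the classes overlapped within each of these comparisons, which does not show the ratios to be equal.

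Over all lengths, 202 of 1079 hosts (18.7%) also held a Ctrl-only body peak, compared with 1.04% of genes with room and no CKO-only one. The shares depended on length, being 1.78% and 0.294% up to 50 kb and 5.81% and 1.56% at 50 to 100 kb. Above 400 kb, 115 of 269 hosts (42.8%, 36.8 to 48.9) also held a Ctrl-only body peak, compared with 14 of 69 genes (20.3%, 11.6 to 31.7) with no CKO-only one. At 200 to 400 kb the shares were 22.0% and 11.6%, and at 100 to 200 kb 9.44% and 3.26%. Over all genes with room, 2.18% held a Ctrl-only peak. CKO input peaks lay in 39.0% and 36.2% of the same classes above 400 kb. At the level of sites, 37 of 2009 body peaks (1.84%) lay within 10 kb of a Ctrl H3K9me2 peak and 5 within 1 kb, and the median gap was 212.6 kb.

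The strongest body peak by fold lay in Rundc3b at chr5:8505384-8505814, with a fold of 11.5 and 22 fragments. A peak in Fgf14, whose product binds voltage-gated sodium channels, followed at chr14:124023689-124024152 with a fold of 11.4 and 21 fragments. These 2 genes differ in their ends: Rundc3b had H3K4me3 there and Fgf14 did not. Gm16527 (chr3:59783365-59783773) and Pdilt (chr7:119504756-119505165), a testis gene of the protein disulfide isomerase family, each had a fold of 10.8 with 22 fragments. Tfap2d, a transcription factor gene, and Wwox, a gene over a known fragile site, had peaks of fold 10.6 and 17 fragments each. Fhit, the gene of another fragile site, had 1 at 10.1.

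Further peaks of the 20 highest were close to one another in fold. Dcc, the netrin receptor gene, had a peak of fold 10.6. Csmd3 encodes a large membrane protein with CUB and sushi domains and had 1 of 10.4. The potassium channel gene Kcnj3, the cation channel gene Trpm3 and the glycosyltransferase gene Galnt13 each had 1 of 10.3. Grip1, a scaffold of glutamate receptors, had 1 of 10.1. Cpa3, of mast cells, closed the 20 with a fold of 9.99. Peaks in Lypd1, Mdga2, Dcdc5, Nyap2 and Ttc6 had folds of 10.1 to 10.6.

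Some genes held many body peaks along their length. Cntnap2, a neurexin-family gene 2241 kb long, held 11 with folds of 3.88 to 7.16, and also 4 Ctrl-only peaks. Dab1, the adaptor of the reelin pathway, held 11 in 1125 kb, and Dlgap2, a postsynaptic scaffold gene, held 11 in 757.7 kb. Per Mb of eligible sequence this was 4.92 in Cntnap2, 9.81 in Dab1 and 14.6 in Dlgap2, so genes with equal counts differed in density. Grid1, which encodes a delta glutamate receptor, held 10 in 763.4 kb, with folds of 4.18 to 9.27 and no Ctrl-only peak. Nrxn3 held 10 with folds of 5.04 to 7.41, and Sox5, a transcription factor gene, held 10 with folds of 5.22 to 7.37. Both also held Ctrl-only peaks, 2 in Nrxn3 and 3 in Sox5.

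Ctnna3, an alpha-catenin gene, and Magi2, a synaptic scaffold gene, held 10 each at 6.40 and 6.75 per Mb, while A830018L16Rik held 10 at 17.9 per Mb. Csmd2 held 9 at 15.8 per Mb. Lrp1b, of the LDL receptor family, and Ptprd, a receptor tyrosine phosphatase gene, held 9 each at 4.38 and 3.97 per Mb. H3K4me3 lay at an end of Dlgap2, A830018L16Rik, Ctnna3, Grid1, Magi2, Sox5, Lrp1b and Ptprd, and not of Cntnap2, Dab1, Nrxn3 or Csmd2. The plot of positions along these genes shows peaks over most of each gene rather than in 1 cluster, with those of Dlgap2 mainly toward its lower-coordinate end and those of Grid1 mainly toward its higher-coordinate end.

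**Figure D4:**
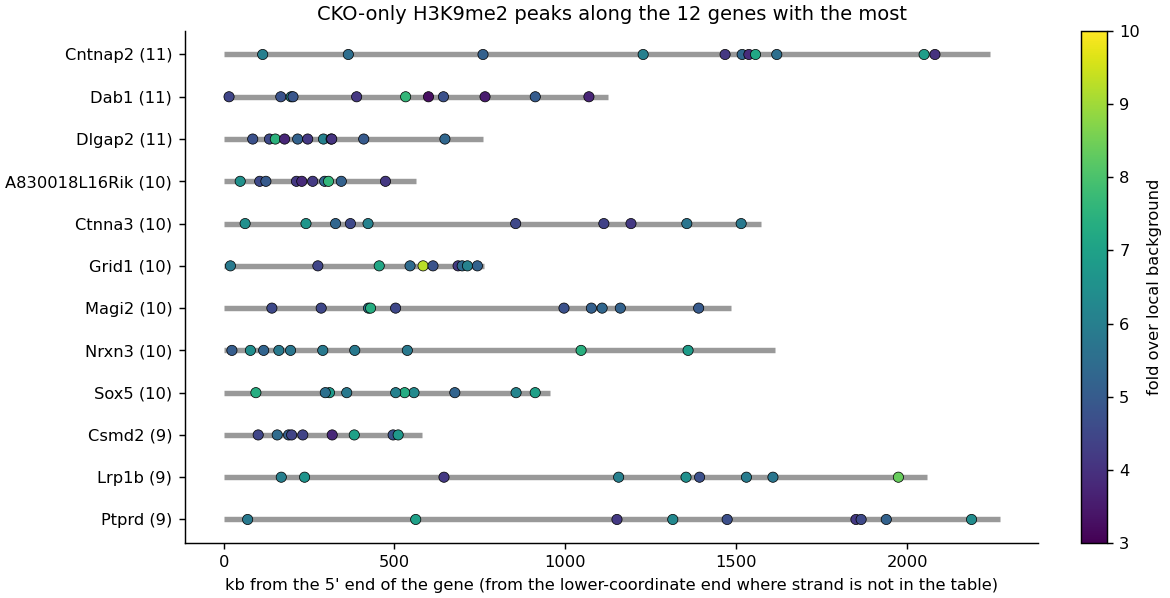
Positions of CKO-only H3K9me2 body peaks along the 12 genes with the most, in kb from the 5′ end, or from the lower-coordinate end where the strand is not in the table. Point colour is the fold over local background, and the number of peaks stands beside each gene name. Counts are 9 to 11 in genes of 562.3 to 2271 kb.

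Counted by density among genes with 3 or more, the leading hosts were shorter. The minimum of 3 favours this, since at a given count a shorter gene has a higher density. Over all genes the rate rose with length, as given above. Sp140, a gene of immune cell nuclear bodies 57.55 kb long, held 3 body peaks at 60.5 per Mb of its eligible sequence. Gm272 held 4 at 36.6 and Gm7361 held 3 at 36.5. Htr7, a serotonin receptor gene, held 3 at 31.3, with folds of 3.89, 6.48 and 6.84. Apba2 held 6 at 24.2, Tafa5 5 at 23.7, Khdrbs3, an RNA-binding protein gene, 4 at 23.6, and Galnt14 5 at 23.3. Only Tafa5 among these 8 held a Ctrl-only body peak. The widest body peak, 1296 bp, lay in Marchf1 at a fold of 3.82, and the next were in Zpbp (1240 bp), Kcnq3 (1219 bp), Lin7a (1016 bp) and Mrgprd (989 bp).

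The gene families were then read as lists, each with its hosts and its body peaks per Mb. Beside these stands the number that its genes would hold at the rate of all genes of their length classes. That number takes no account of H3K4me3 at an end, which 61.0% of all genes had. The share was 96.2% for growth signalling, 94.1% for the histone enzymes and readers and 80% for myogenic regulators. It was 66.7% for potassium channels, 52% for glutamate receptors, 45.8% for sarcomere genes and 27.8% for blood and immune genes. The part of H3K4me3 in the ratios to length classes was not tested. Synaptic adhesion genes and glutamate receptor genes were hosts in large part. Of 52 synaptic adhesion genes 27 were hosts, with 116 body peaks or 4.21 per Mb (3.48 to 5.05), which is 1.09 times the number at the rate of their length classes. Of 25 glutamate receptor genes 15 were hosts, with 47 body peaks or 5.23 per Mb (3.84 to 6.96), 1.45 times the 32.4 given by their length classes. Against the 6.43% of genes with room these shares are high, and against genes of the same length the synaptic adhesion list was close to the background. The plot of lists shows both comparisons.

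**Figure D5:**
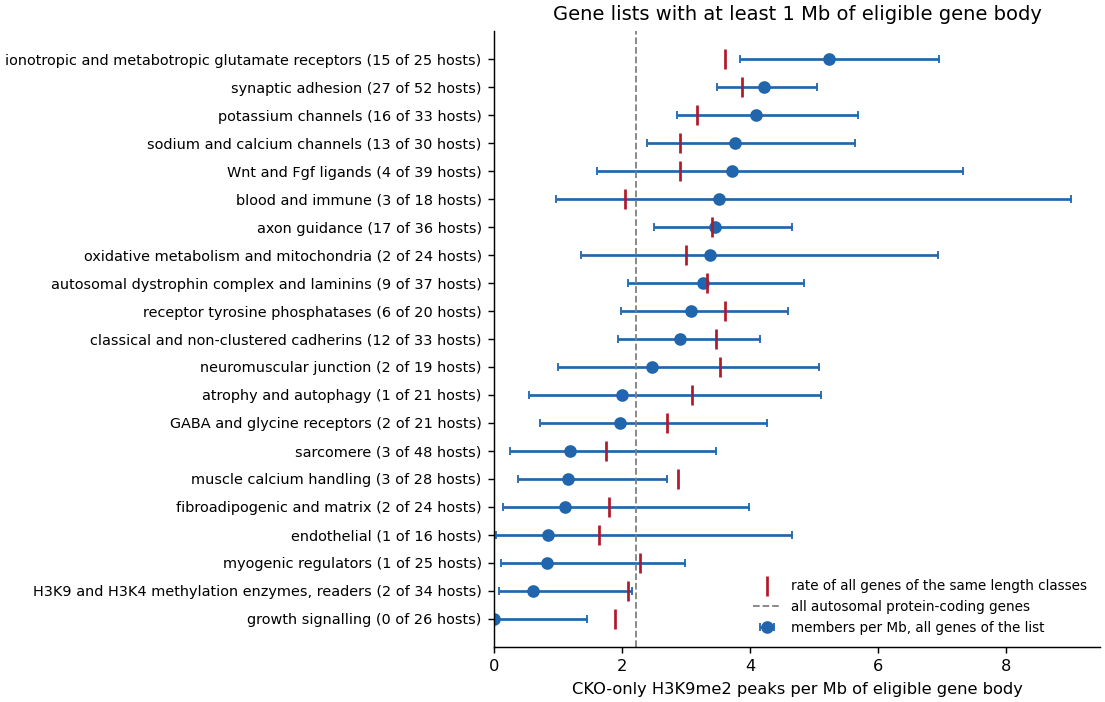
CKO-only H3K9me2 body peaks per Mb of eligible gene body for each list with at least 1 Mb (points, with exact 95% Poisson intervals), the rate that all genes of the same length classes would give (vertical ticks) and the rate over all genes (dashed line, 2.22 per Mb). Points above their ticks include glutamate receptors, potassium channels, sodium and calcium channels, the Wnt and Fgf families (labelled ligands), and blood and immune. Points below include muscle calcium handling, histone enzymes, myogenic regulators and growth signalling. Blood and immune rests on 4 body peaks, and its interval includes its tick, as do the intervals of most lists. The ticks match gene length and not H3K4me3.

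Among adhesion genes, Tenm2, Cntn4, Lsamp, Ntm and Dscam held 7 each, after Cntnap2 and Nrxn3. Among receptors, Grin2b, a subunit of NMDA receptors, held 8 in 460.4 kb, with folds of 3.48 to 7.28 and no Ctrl-only peak. The kainate receptor gene Grik2 held 5, and Grin2a, another NMDA receptor subunit, held 4. Over the glutamate receptor list there were 5 Ctrl-only body peaks, giving 9.4 CKO-only for each Ctrl-only (3.76 to 30.3), and over synaptic adhesion genes 21, giving 5.52 (3.45 to 9.26). Both intervals include the 4.47 found over all genes counted in this way. Of 21 genes for receptors of the inhibitory transmitters GABA and glycine, 2 were hosts, Gabrg3 with 4 and Gabrb1 with 2. The genes of this list were shorter, with a median of 90.7 kb against 318.7 kb for glutamate receptors. They held 6 body peaks at 1.96 per Mb (0.720 to 4.27), 0.727 times the 8.26 given by their length classes.

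Channels and guidance molecules lay between. Of 33 potassium channel genes 16 were hosts, at 4.09 per Mb and 1.29 times their length classes, led by Kcnb2 with 6 and Kcnq3 with 5, then Kcnip4 and Kcnma1 with 4 each. Of 30 sodium and calcium channel genes 13 were hosts, at 3.76 per Mb and 1.297 times, led by Cacna2d3 with 6, an auxiliary subunit, and Cacna1e with 5, a pore subunit. Axon guidance genes gave 17 of 36 at 3.45 per Mb and 1.01 times, led by Epha6, an ephrin receptor, with 7, and Robo2, Sema5a and Dcc after it. Cadherins gave 12 of 33 and receptor tyrosine phosphatases 6 of 20, at 0.837 and 0.854 times their length classes, with 8 in Cdh12, 9 in Ptprd and 7 in Ptprt. Among genes of the Wnt and Fgf families 4 of 39 were hosts, with 8 body peaks. These were Fgf14 with 4, Fgf12 with 2, and Wnt2 and Fgf10 with 1 each. The product of Fgf14 binds sodium channels, so this list is not of ligands alone.

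Sarcomere genes were hosts about as often as other genes, and calcium handling genes held fewer body peaks than their length classes give. Of 48 sarcomere genes 3 were hosts (6.25%, compared with 5.22% of all genes) with 1 body peak each. That was 1.19 per Mb (0.244 to 3.46) and 0.680 times their length classes, an interval that includes the 2.22 over all genes. These were Myom2, of the M-band, with a fold of 7.68, Nebl, the nebulette gene, with 6.54, and Cap2, an actin regulator, with 4.38. Of 28 calcium handling genes 3 were hosts (10.7%), with 5 body peaks where their length classes give 12.4, or 0.402 times. That was 1.16 per Mb (0.375 to 2.70), an interval that includes the 2.22 over all genes but not the rate of their length classes. Ryr2, the release channel best known from heart, held 3 with folds of 4.84, 5.97 and 8.22 and had no H3K4me3 at an end, while Ryr3 and Cacna2d1 held 1 each. Titin, nebulin and the fast and slow myosin heavy chains are in the sarcomere list and were not hosts.

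Genes of the dystrophin complex and the laminins were the muscle list with the most. Of 37 genes 9 were hosts, with 24 body peaks at 3.26 per Mb (2.09 to 4.85), 0.980 times their length classes. Sgcz, the zeta-sarcoglycan gene of 1144 kb, held 8 with folds of 3.85 to 7.53, and Sgcd, the delta-sarcoglycan gene of 1018 kb, held 6 with folds of 4.51 to 7.91. Both had H3K4me3 at an end and also Ctrl-only peaks, 3 in Sgcz and 2 in Sgcd. Sntg1, a syntrophin gene, held 3. Dtna, Lama2, Sntg2, Sspn and Lama1 held 1 each.

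Regulators of muscle identity and growth had host shares whose intervals include the 5.22% of all genes. Of 25 myogenic regulators 1 was a host (4%, interval 0.101 to 20.4), Sox6, a repressor of slow fibre genes, with 2 body peaks of folds 5.11 and 5.37, against 5.51 at the rate of the length classes. None of 26 growth signalling genes was a host (interval up to 13.2%), where their length classes give 4.83. A count of 0 allows up to 1.44 per Mb, which is below the 2.22 over all genes. At the neuromuscular junction, 2 of 19 genes were hosts, the neuregulin receptor Erbb4 with 5 and its ligand Nrg1 with 2. Among 24 oxidative genes, Ppargc1a, the coactivator that drives mitochondrial gene expression, held 5 with folds of 4.56 to 5.80 and Esrrg, a nuclear receptor gene, held 2.

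The remaining lists differed in their rates, on small counts. Of 34 enzymes and readers of H3K9 and H3K4 methylation, Mecom and Prdm16 held 1 each, 2 in all where the length classes give 7.01. Both encode PR domain proteins, and neither is an H3K9me2 demethylase. Fibroadipogenic genes had 2 hosts of 24 (Col1a2 and Fbn2), endothelial genes 1 of 16 (Tek), and blood and immune genes 3 of 18 (Ikzf1 with 2, Ebf1 and Mrc1). The blood and immune genes held 4 body peaks at 3.52 per Mb (0.959 to 9.01), 1.72 times their length classes, and the fibroadipogenic genes 2 at 1.10 (0.133 to 3.98), 0.614 times. None of 16 housekeeping or 10 Schwann cell genes was a host, and these hold little eligible sequence, 0.126 and 0.297 Mb.

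The limits of the rule can be read from the peaks beside them. Just inside the 2 kb distance were peaks in Akain1 (2016 bp from a gene end, fold 6.00), Gm26650 (2026 bp, 5.18) and Serpina3b (2064 bp, 5.97). Just outside it were Gja3 (1993 bp, 3.61), Olfr1428 (1991 bp, 4.599) and Smok2a (1973 bp, 6.61). The body peaks nearest a Ctrl H3K9me2 peak were 30 bp away in Lnpep, with folds of 4.95 in CKO and 4.23 in Ctrl, 104 bp away in Muc6 (4.30 and 4.32) and 253 bp away in Dnah5 (4.64 and 4.41). In these last 3 genes a peak lay close by in each genotype, and the rule counted the CKO one as absent from Ctrl because no base was shared.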

How the data were processed

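H3K9me2, H3K4me3 and input DNA of gastrocnemius muscle were profiled by CUT&RUN, 1 deposited peak list per library and 6 in all, and grouped by their titles and genotype labels. Alignment used Bowtie2 and the mm10 build, and MACS2 called the peaks, per the submitters' processing notes, which name no versions. The sources used here do not state the preparation of the inputs, the use of an input as control in peak calling, or whether separate animals were used.

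For each peak the authors deposited a position, a score, a summit offset, −log10 values of p and q (a p-value and a q-value) and a fold. The fold is the ratio of the pileup at the summit to the background around it, with a small constant added to both. The lowest −log10 q of each deposited list was close to that of a q-value of 0.05. Summit fragments and local background were computed from the authors' fold and −log10 p, with the listed value matched within 0.1%, for 99.0% to 99.96% of the autosomal peaks of each list. Overlap meant 1 bp or more, and the centre of a peak gave its place.

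Genes and starts came from the RefSeq tables of GRCm38.p6, which give no exons here, and strand came from the start table. Per-gene counts, rates per Mb and shares were computed with Python 3.11.15, numpy 2.4.6, pandas 2.3.3 and scipy 1.17.1, figures with matplotlib 3.10.9, and the functions were tested on simulated peaks. No test was run across peaks or genes. The members, the 23 gene lists, the named genes and the alternatives were chosen with earlier results of these data known. Named genes are those of the 20 highest folds, the 12 genes with the most members, the 8 densest with 3 or more, up to 4 hosts per list and all hosts of the muscle lists, the 5 widest members, the members beside the 2 kb limit, and Phf2. Some genes the rule would name are not reported here. Genes outside this rule are marked where they appear, apart from the markers, the closest pairs and the remaining hosts of a list. Alternatives were other q-values, folds, list lengths, overlaps, distances to gene ends and uses of the inputs.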

Additional observations from a re-analysis of the deposited data

Results flagged for a closer look

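Chromosome X was left out of the set by its rule. By the same steps it held 24 CKO-only H3K9me2 peaks in gene bodies, or 0.569 per Mb of eligible sequence (exact Poisson interval 0.365 to 0.847), compared with 2.22 per Mb on the autosomes. Chromosome X is present once in male cells, and its part in this rate was not tested.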

How the results depend on the processing

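Counts and folds depended on the strictness of the list, as the alternatives' construction sets them. With q of 1e-05 or less there were 654 body peaks in 453 hosts, 128 of them with 2 or more, at 0.722 per Mb, a median fold of 6.78 and a median host length of 291.0 kb. With peaks at or above the median fold these were 893, 576, 177, 0.985, 6.38 and 249.9 kb. With the CKO list shortened to the length of the Ctrl list by q they were 474, 364, 82, 0.523, 7.19 and 311.6 kb. Ctrl-only body peaks then numbered 521 (439 with the full lists). The excess of CKO-only over Ctrl-only body peaks was not seen at equal list length, an outcome that the shortening largely sets. The rate was 2.36 per Mb over 5 kb from gene ends, 2.52 with no input peaks removed and 2.42 without the CKO input, the last chosen after seeing the data. Leaving out either Ctrl input gave 2015 to 2041 body peaks at 2.22 to 2.25 per Mb. The other 75 values moved by less than 1.5 times or within their counting interval, and the share of hosts with H3K4me3 at an end lay between 47.0% and 51.7% in all alternatives. No paired analysis was possible because the groups have 1 H3K9me2 library each and no result comes from a test. Depth limits what absence from Ctrl means, most plainly for body peaks with up to 7 fragments. The scaling left out sampling spread, so it does not clear those with more.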
